A study of Homo sapiens with 42 samples.

Results

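The cyclin-dependent kinase (CDK) inhibitors and the D-type cyclins were described through the open chromatin assigned to their 10 genes, measured by ATAC-seq in 4 EGFR-mutant lung adenocarcinoma cell lines. Members were all regions of the 4 annotated count tables whose gene symbol was CDKN1A, CDKN1B, CDKN1C, CDKN2A, CDKN2B, CDKN2C, CDKN2D, CCND1, CCND2 or CCND3, which gave 121 of 242490 regions. PC9 held 42 of them, H1975 40, HCC827 16 and HCC2935 23, and each region was 502 bases long. CCND1 had 37 regions, CCND3 26, CDKN1A 17, CDKN2D 12, CDKN2C 11, CDKN1B 6, CDKN2B 6, CDKN2A 5 and CCND2 1, the last in PC9. CDKN1C had 0 assigned regions in each line. All 121 regions passed the filter on low counts.

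The study had 42 libraries in 14 groups of 3, labelled ATAC-seq in their titles, although the labels' extraction text describes a ChIP of H3K27ac. In each line, control cells were kept for 21 days without drug and then for 3 days in DMSO, and drug-tolerant persister (DTP) cells were kept for 24 days in 500 nM osimertinib, an inhibitor of mutant EGFR. Combination (combo) cells had 21 days of 500 nM osimertinib and then 3 days with 150 nM AZD5153, and it is not stated if osimertinib stayed on for those 3 days. PC9 and H1975 also had an AZD5153 group, with 21 days without drug and then 3 days of 150 nM AZD5153. Nothing in the labels says that replicates came from separate cultures, so p-values measure the spread between these libraries, which may be technical.

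D-type cyclins bind CDK4 and CDK6 and, through phosphorylation of RB1, release the block on entry into S phase. The INK4 inhibitors, encoded by CDKN2A, CDKN2B, CDKN2C and CDKN2D, bind CDK4 and CDK6 directly, and the CIP/KIP inhibitors, encoded by CDKN1A, CDKN1B and CDKN1C, bind complexes of cyclin and CDK. CCND1 is a well known target of growth factor signalling in epithelial cells, and CDKN2A also encodes ARF from an alternative first exon.

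RefSeq promoters are shown for CDKN1A, CDKN1B, CDKN2D and CCND3, whose start regions could be compared in all 4 lines, and for CDKN2A, whose start region moved in opposite directions in PC9 and H1975. Each run is the 250 bases before a RefSeq start, 5′ to 3′ on the gene's strand (build GRCh38.p14). Capitals mark any match, on either strand, to 5 motifs, and matches may overlap. The GC box, spelled GGGCGG, is bound by SP1 and the CCAAT box by NF-Y. The core promoter element searched was spelled TATAAA. The AP-1 factors bind the letters TGANTCA, and the TEAD factors bind those spelled GGAATG.
CDKN1A, chr6:36678464-36678713, + strand: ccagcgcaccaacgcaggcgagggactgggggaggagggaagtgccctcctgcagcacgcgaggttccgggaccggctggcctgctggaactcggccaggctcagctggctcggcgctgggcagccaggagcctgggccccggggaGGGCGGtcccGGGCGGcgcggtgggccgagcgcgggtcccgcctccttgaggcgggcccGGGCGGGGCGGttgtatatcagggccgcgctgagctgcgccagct
CDKN1B, chr12:12717118-12717367, + strand: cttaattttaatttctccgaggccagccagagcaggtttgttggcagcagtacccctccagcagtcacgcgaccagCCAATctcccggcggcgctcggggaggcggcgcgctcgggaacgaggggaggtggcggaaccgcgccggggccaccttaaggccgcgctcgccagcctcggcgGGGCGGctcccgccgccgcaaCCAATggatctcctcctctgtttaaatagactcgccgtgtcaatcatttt
CDKN2D, chr19:10568980-10569229, - strand: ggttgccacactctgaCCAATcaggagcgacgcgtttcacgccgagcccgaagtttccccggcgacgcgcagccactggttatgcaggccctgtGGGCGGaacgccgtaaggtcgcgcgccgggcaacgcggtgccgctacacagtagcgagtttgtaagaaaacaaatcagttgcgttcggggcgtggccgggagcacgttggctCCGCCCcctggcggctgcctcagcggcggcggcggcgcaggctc
CCND3, chr6:41941809-41942058, - strand: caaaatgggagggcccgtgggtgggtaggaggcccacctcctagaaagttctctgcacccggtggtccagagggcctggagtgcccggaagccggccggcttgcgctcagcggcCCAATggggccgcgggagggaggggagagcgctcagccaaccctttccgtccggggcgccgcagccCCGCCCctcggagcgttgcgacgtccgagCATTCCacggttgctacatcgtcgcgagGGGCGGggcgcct
CDKN2A, chr9:21974858-21975107, - strand: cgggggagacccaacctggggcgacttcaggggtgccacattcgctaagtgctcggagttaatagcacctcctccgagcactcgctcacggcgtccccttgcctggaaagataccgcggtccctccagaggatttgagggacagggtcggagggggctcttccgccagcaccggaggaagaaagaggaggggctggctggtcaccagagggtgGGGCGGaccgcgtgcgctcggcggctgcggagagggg
The CDKN1A window held 4 GC boxes, CDKN2D and CCND3 held 2 each, and CDKN1B and CDKN2A held 1 each. CCAAT occurred 2 times before CDKN1B and 1 time each before CDKN2D and CCND3, and the TEAD letters 1 time before CCND3. The core promoter and AP-1 letters were in 0 of these windows. Of 35116 RefSeq promoter windows of the same length, 42.6% held the GC box, 32% CCAAT, 10.7% the core promoter letters, 6.57% the AP-1 letters and 11.9% the TEAD letters.

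Levels are counts-per-million (CPM) values on TMM-scaled library totals. Library totals ranged from 3989287 to 5193390 counts in PC9 and 6200672 to 10062505 in H1975, with 1724680 to 4242868 in HCC827 and 3968690 to 8066287 in HCC2935. A change was called at an adjusted p of 0.05 by edgeR's quasi-likelihood test with Benjamini-Hochberg adjustment over all regions of the line, and each change is given as a log2 fold change ± SE. Replicates in PC9 and H1975 differed by little more than counting noise (ratios of observed to counting variance of 0.959 to 1.04 and 0.966 to 1.22, against 1.18 to 1.83 in HCC2935 and 1.21 to 8.76 in HCC827). A second fit, called the summed fit here, took the sum of each group's 3 libraries as 1 sample and used the dispersion of HCC2935. In HCC827 libraries with the same replicate number deviated together, so a fit blocked on that number was added. The 3 H1975 libraries labelled AZD5153 stood apart, since the promoters of the epithelial markers CDH1 and EPCAM had 4.46 ± 0.24 and 7.45 ± 1.34 CPM (SD, n = 3) there, against 31.7 ± 1.17 and 22 ± 1.63 CPM in H1975 control. The summed level of all 4 epithelial marker promoters was 48.5 CPM in that group and between 64.7 and 125 CPM in the other 13. That of the lung adenocarcinoma markers NKX2-1, SFTPB and NAPSA did not stand apart there. It was 30.7 CPM, against 49.5 CPM in H1975 control, 33.7 CPM in DTP and 32.6 CPM in combo cells. Of 3 leukocyte markers, CD3E alone had a promoter region, in PC9 and HCC2935, at 1.46 to 10.2 CPM.

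The strongest promoter region of each gene in each line is called its lead promoter. The CDKN2D lead promoter ranged from 30.6 CPM in HCC2935 DTP cells to 73.6 CPM in the H1975 libraries labelled AZD5153. That of CDKN1A ranged from 17.2 to 34.4 CPM over the 14 groups, that of CCND3 from 13.8 to 32.3, that of CDKN1B from 11.1 to 31.2 and that of CCND1 from 13.6 to 28.7 CPM. The CCND1 range and order join different sites. Its lead promoter was centred 2005 bases before the start in PC9, 4 before it in H1975 and 3 before it in HCC827. In HCC2935 it was centred 3262 bases after the start. The lead promoters of CDKN2B (12.6 to 20.5 CPM), CDKN2C (7.61 to 17) and CDKN2A (3.62 to 11.8) reached lower levels, and that of CCND2 in PC9 had 1.38 to 4.86 CPM. With the group means of a gene in order, few neighbours lay further apart than the sum of their SDs, which was so for 2 of 13 steps for CDKN2D and for CCND3, 1 of 13 for CDKN1A, 1 of 10 for CDKN2B, 2 of 3 for CCND2 and 0 for CCND1, CDKN1B, CDKN2A and CDKN2C. Levels of different lines come from tables with their own regions and scaling and were not tested against each other. The authors' peak calls had a summit inside the lead promoter in 98 of 108 pairs of promoter and library in PC9 and 94 of 96 in H1975, with 64 of 72 in HCC827 and 54 of 54 in HCC2935. CCND2 in PC9 had such a peak in 5 of 12 libraries and CDKN2A in HCC827 in 4 of 9.

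**Figure D1:**
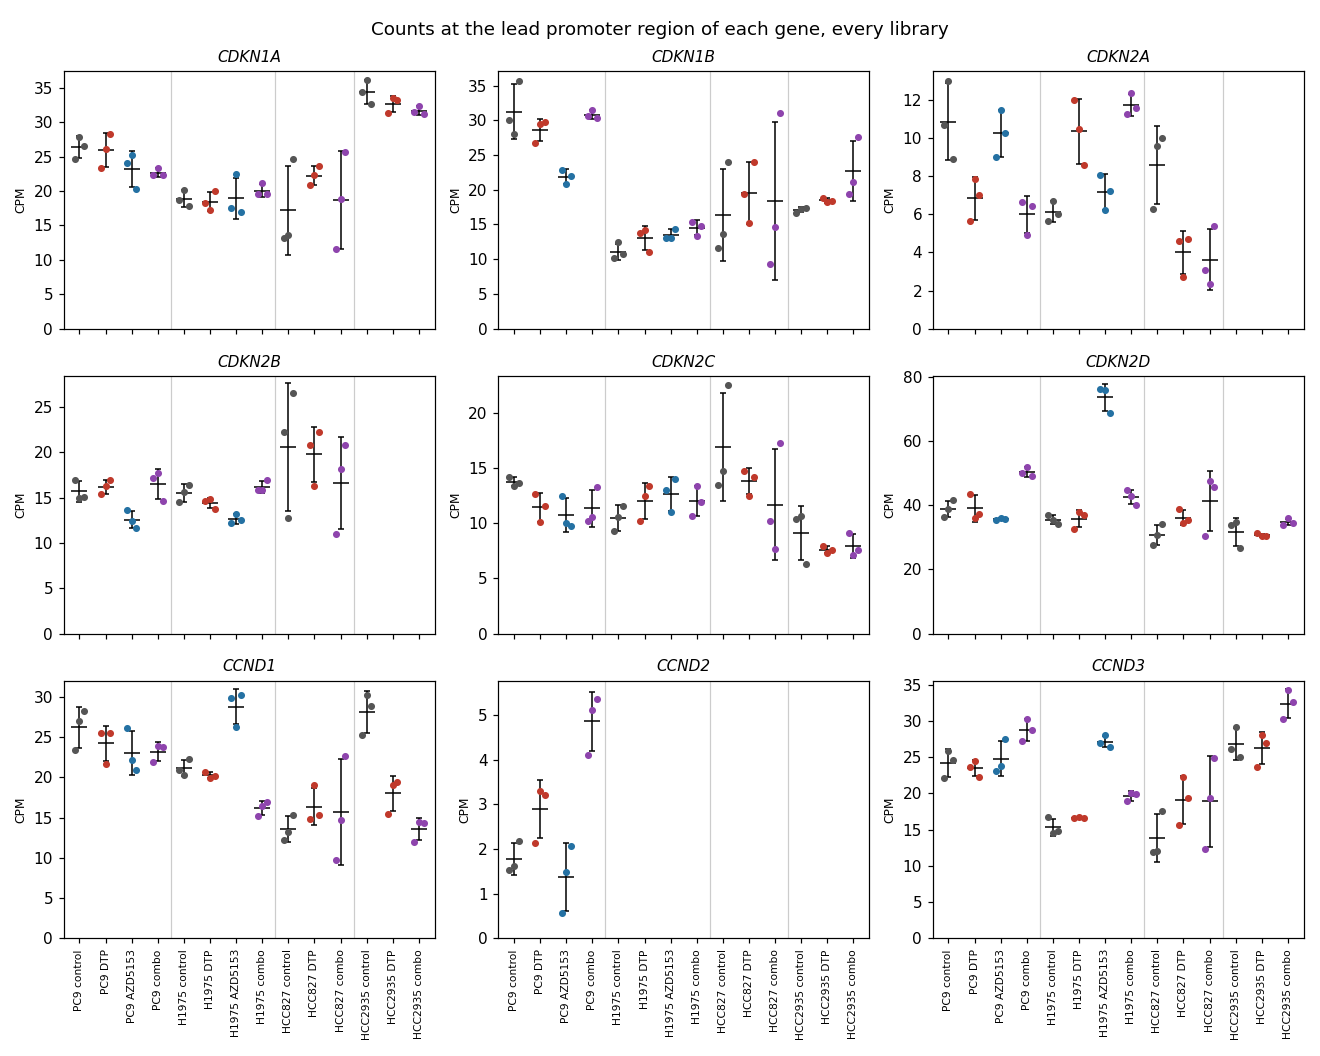
CPM at the lead promoter region of each gene in every library, by group, with points for libraries and bars for the mean and SD of 3. CDKN2D reached 73.6 CPM in the H1975 libraries labelled AZD5153, CDKN2A and CDKN2B have no points in HCC2935, and CCND2 has points in PC9 alone. The CCND1 region is a different site in PC9 and in HCC2935 than in H1975 and HCC827.

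In HCC2935 the full count table held 0 regions at chr9:21900001-22050000, the stretch with CDKN2A and CDKN2B, and its 9 libraries had 0 peaks there. PC9 had 21 regions in that window, H1975 32 and HCC827 34. At chr9:21000001-21900000, HCC2935 had 15 regions against 93 in PC9, 134 in H1975 and 127 in HCC827, and at chr9:22050001-23000000 it had 1 against 57, 67 and 96. Missing DNA and closed chromatin cannot be told apart from these counts. Some regions within 1 kb of a member gene carried another symbol and were not counted as members. These were 6 regions given to KRI1 at CDKN2D, 5 given to FAF1 at CDKN2C, 5 given to TAF8 at CCND3, 4 given to CCND2-AS1 at CCND2 and 3 given to CDKN2B-AS1 at CDKN2A.

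The comparison of DTP with control cells asked what differed at these loci after 24 days of osimertinib. Of the 42 PC9 regions, 2 rose and 4 fell, against 15.5% and 16.3% of all tested regions. Of the 40 H1975 regions, 9 rose and 8 fell, against 24.8% and 27.0% of all. Scaled by library size only, which moved the median log2 change of all H1975 regions from 0.02 to 0.19, 17 rose and 5 fell. At that scaling 61794 of all 191202 regions rose and 42713 fell. With the median change of all regions in the same 10 Mb bin removed 11 rose and 6 fell, against 46533 and 51847 of all. Of the 23 HCC2935 regions, 3 rose and 8 fell, against 18.4% and 19.0% of all, and 7 of the 8 falls were at CCND1. With the bin medians removed 3 HCC2935 regions rose and 5 fell, 4 of the falls at CCND1. In that fit 24444 of all 154179 regions rose and 24694 fell. Of the 16 HCC827 regions, edgeR called 0 (1 at an unadjusted p under 0.05), against 0.0207% and 0.00607% of all, and the replicate block also called 0, against 2.38% and 1.21% of all. The median log2 change of the members was -0.12 in PC9 and 0.07 in H1975, with -0.09 in HCC827 and -0.07 in HCC2935, and that of all tested regions lay between -0.02 and 0.02. In the summed fit 2 of 42 PC9 regions were called, against 16.0% of all, and 7 of 40 in H1975, against 33.5%. Over all regions, every DTP library was above every control library at 20.9% in PC9 and below at 20.7%. These shares were 27.3% and 28.8% in H1975, 7.73% and 5.97% in HCC827, and 23.6% and 23.5% in HCC2935.

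Marker promoters of other cell types also differed between DTP and control cells. The sum of the fibroblast marker promoters was 22.9 CPM in control and 37.7 CPM in DTP cells of HCC2935, where COL1A2, a collagen gene, went from 3.59 ± 0.732 to 13.3 ± 3.41 CPM (SD, n = 3). In PC9 this sum was 27.9 and 24 CPM, in H1975 22.3 and 23.9 CPM, and in HCC827 15.6 and 20.2 CPM. The CD3E promoter, the leukocyte marker, had 7.89 ± 3.25 and 2.14 ± 0.477 CPM in control and DTP cells of PC9, and 10.2 ± 1.35 and 5.89 ± 1.05 CPM in those of HCC2935 (SD, n = 3). The sum of the endothelial marker promoters was 23.4 and 16.3 CPM in H1975, where PECAM1 went from 7.03 ± 0.973 to 1.74 ± 0.828 CPM (SD, n = 3), and 16.4 and 15.2 CPM in PC9, with 4.8 and 5.22 CPM in HCC827 and 19.9 and 19.6 CPM in HCC2935. The sum of the lung adenocarcinoma marker promoters was 14.3 CPM in control and 12.3 CPM in DTP cells of PC9, and 49.5 and 33.7 CPM in H1975. It was 26 and 23.3 CPM in HCC827, and 43.2 and 24.5 CPM in HCC2935. For the epithelial markers it was 101 and 89.6 CPM in PC9, 117 and 94.6 CPM in H1975, 102 and 65.6 CPM in HCC827, and 106 and 95.9 CPM in HCC2935. The part of all these markers in the member values was not tested.

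**Figure D2:**
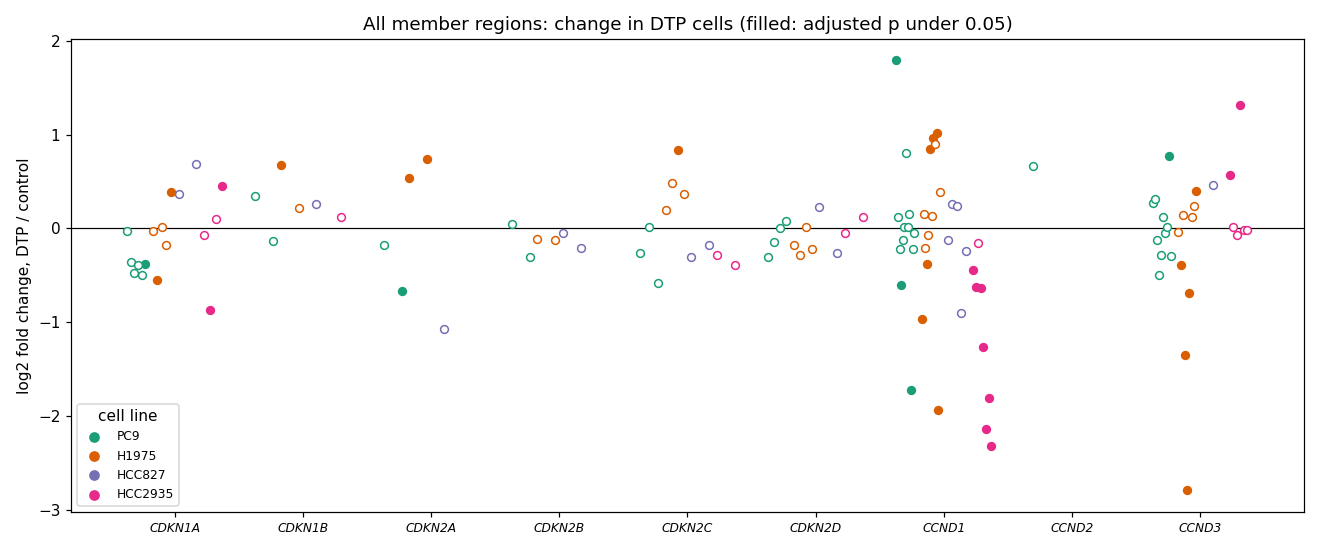
Log2 fold change of DTP against control cells for every region of each gene, coloured by cell line, with filled points where the adjusted p was under 0.05. CCND1 and CCND3 regions reach furthest from 0, with -2.79 for a CCND3 intron region in H1975, and the CDKN2D regions lie near 0.

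Among the CIP/KIP inhibitors, the lead promoter of CDKN1A, the p21 gene, was not called in any line. In PC9 it had 24.7, 27.8 and 26.6 CPM in control and 23.4, 26.1 and 28.3 CPM in DTP libraries (log2 -0.03 ± 0.10). The change was -0.03 ± 0.10 in H1975, 0.37 ± 0.39 in HCC827 and -0.07 ± 0.11 in HCC2935. A region further into CDKN1A, over its 5′ UTR or first intron, differed between lines. In PC9 (chr6:36682685-36683186) it fell from 22.6, 18.7 and 17.1 CPM to 15.6, 13.4 and 15.3 CPM (log2 -0.38 ± 0.13, edgeR adjusted p = 0.0161). In H1975 the matched region rose from 18, 17.5 and 14.9 CPM to 22.4, 21.6 and 22 CPM (0.39 ± 0.10, edgeR adjusted p = 0.00032), and in HCC2935 from 28.9, 24 and 28.7 CPM to 43.3, 37.6 and 31.1 CPM (0.45 ± 0.12, edgeR adjusted p = 0.00303). In each of these 3 lines the DTP and control libraries did not overlap. The HCC827 value was 0.69 ± 0.42, not called. The PC9 fall was not called without control replicate 1 (-0.28, edgeR adjusted p = 0.155) or DTP replicate 2 (-0.31, edgeR adjusted p = 0.0983). In the summed fit neither the PC9 nor the H1975 change was called (edgeR adjusted p = 0.246 and 0.143).

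Just inside the CDKN1A start a weaker region fell in 2 of the 3 lines that held it. In HCC2935 it fell from 12.6, 8.49 and 8.68 CPM to 6.64, 4.28 and 5.82 CPM (-0.87 ± 0.23, edgeR adjusted p = 0.00247). In H1975 it fell from 8.85, 6.73 and 8.07 CPM to 5.72, 5.37 and 4.99 CPM (-0.55 ± 0.16, edgeR adjusted p = 0.00168, and 0.0904 in the summed fit). The PC9 value of this region was -0.36, not called. CDKN1B, the p27 gene, whose promoter is printed with 2 CCAAT boxes, was not called at its lead promoter in any line in the main fit. The change there was -0.13 ± 0.10 in PC9 and 0.22 ± 0.12 in H1975, with 0.26 ± 0.46 in HCC827 and 0.12 ± 0.15 in HCC2935. The H1975 rise was called by library size only (0.39, edgeR adjusted p = 0.00267) and with annotated regions only (0.31, edgeR adjusted p = 0.0133). It was also called without DTP replicate 3 (0.34, edgeR adjusted p = 0.0281). A weaker CDKN1B region, 2636 bases before the RefSeq start, rose in H1975 from 3.18, 2.16 and 2.17 CPM to 3.66, 4.56 and 3.69 CPM (0.68 ± 0.23, edgeR adjusted p = 0.00753, and 0.133 in the summed fit).

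Among the INK4 inhibitors, CDKN2A moved in opposite directions in PC9 and H1975. The region at its p16 start, whose promoter is printed, lay just before that start in PC9 and HCC827 and covered it in H1975. In PC9 (chr9:21974909-21975410) it fell from 10.7, 13 and 8.93 CPM to 5.65, 7.86 and 7.03 CPM (-0.67 ± 0.18, edgeR adjusted p = 0.00165). In H1975 (chr9:21974693-21975194) the matched region rose from 5.67, 6.73 and 6.02 CPM to 12, 10.5 and 8.59 CPM (0.74 ± 0.15, edgeR adjusted p = 3.5e-06). In both lines the DTP and control libraries did not overlap. The HCC827 region had 6.27, 9.58 and 10 CPM in control and 4.61, 2.72 and 4.72 CPM in DTP libraries, which did not overlap, but the change of -1.07 ± 0.47 was not called (edgeR adjusted p = 0.659, and 0.128 with the block). The region over the ARF start also rose in H1975 (0.54 ± 0.16, edgeR adjusted p = 0.00262, and 0.134 in the summed fit) and was at -0.18 in PC9, not called. The PC9 fall at the p16 start was lost without control replicate 2 (-0.52, edgeR adjusted p = 0.0542) and in the summed fit (edgeR adjusted p = 0.0808).

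CDKN2B, the p15 gene beside CDKN2A, was not called at its lead promoter, with 0.05 in PC9, -0.11 in H1975 and -0.05 in HCC827. CDKN2C, the p18 gene, rose in H1975 at its downstream start, from 5.26, 5.41 and 6.02 CPM to 9.61, 10 and 10.4 CPM (0.84 ± 0.15, edgeR adjusted p = 2.1e-07, and 0.00632 in the summed fit). Every DTP library was above every control library there. The matched CDKN2C region was at 0.01 in PC9, -0.18 in HCC827 and -0.39 in HCC2935, none called. The H1975 CDKN2C lead promoter (0.20, not called) was called by library size only (0.37, edgeR adjusted p = 0.00656) and with the bin medians removed (0.31, edgeR adjusted p = 0.034). The lead promoter of CDKN2D, the p19 gene, was not called in any line in the main fit. Its changes were 0.00 ± 0.08 in PC9 and 0.02 ± 0.08 in H1975, with 0.23 ± 0.29 in HCC827 and -0.05 ± 0.12 in HCC2935. In H1975 it was called by library size only (0.19, edgeR adjusted p = 0.0179).

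CCND1, the cyclin D1 gene, held the fall that was called in most lines. It was at the first region past the 3′ end of the RefSeq gene, 17 to 316 bases beyond it, which the deposited annotation places in an intron of another transcript. In PC9 (chr11:69654643-69655144) this region fell from 27.7, 19.9 and 27.2 CPM to 8.18, 7.04 and 7.23 CPM (-1.72 ± 0.14, edgeR adjusted p = 1.2e-27). In H1975 (chr11:69654790-69655291) it fell from 8.16, 8.65 and 9.64 CPM to 3.55, 2.13 and 1.4 CPM (-1.93 ± 0.19, edgeR adjusted p = 5.2e-19), and in HCC2935 (chr11:69654626-69655127) from 36.8, 33.7 and 27.9 CPM to 11.7, 14.5 and 15.2 CPM (-1.26 ± 0.14, edgeR adjusted p = 7.1e-10). In these 3 lines every DTP library was below every control library. In the summed fit the PC9 and H1975 falls were still called (edgeR adjusted p = 8.3e-10 and 1.9e-08). The HCC827 region (chr11:69654491-69654992) had 15.4, 15.6 and 14.5 CPM in control and 6, 5.44 and 12.1 CPM in DTP libraries. Those libraries did not overlap either, but the change of -0.90 ± 0.46 was not called (edgeR adjusted p = 0.817, and 0.119 with the block). Member regions were matched between lines by at least 50% of their length, which gave 33 sets. Of these, 1 was called as a fall in 3 lines, which was this one, and 0 were called as a rise in 3. However, 10 of the sets were held by 2 lines only and could not be called in 3. Sets with HCC827 had little room for a call there, as 22 of all its 82309 regions were called. Regions of other genes were not matched, so no share of all is given.

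The region over the CCND1 start was not called in PC9, H1975 or HCC827. In PC9 it had 12.2, 14.4 and 14.7 CPM in control and 15, 14.5 and 12.9 CPM in DTP libraries (0.02 ± 0.14), and the change was -0.07 ± 0.09 in H1975 and 0.26 ± 0.39 in HCC827. In HCC2935 the start fell from 20.5, 22.7 and 23.7 CPM to 13.6, 14.9 and 14.9 CPM (-0.62 ± 0.14, edgeR adjusted p = 0.00063). The 10 Mb bin around CCND1 had a median change of -0.68 in HCC2935, against 0.00 in PC9, 0.02 in H1975 and -0.12 in HCC827. With the bin medians removed, the HCC2935 start was at -0.02 (edgeR adjusted p = 0.949) and the 3′ region at -0.66 (edgeR adjusted p = 0.00044). The authors' peak calls had a summit in the 3′ region in all 3 control libraries of each line, at a fold enrichment of 10.3 to 13.8 in PC9 and 8.99 to 10.8 in H1975, with 11.7 to 21.3 in HCC2935 and 3.6 to 8.25 in HCC827. In DTP libraries the fold enrichment was 4.58 to 7.31 in PC9 and 2.68 to 4.48 in H1975, below every control library of the line. It was 8.68 to 14.8 in HCC2935, which overlapped the controls, and 1 of 3 HCC827 DTP libraries had a peak there, at 7.41.

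**Figure D3:**
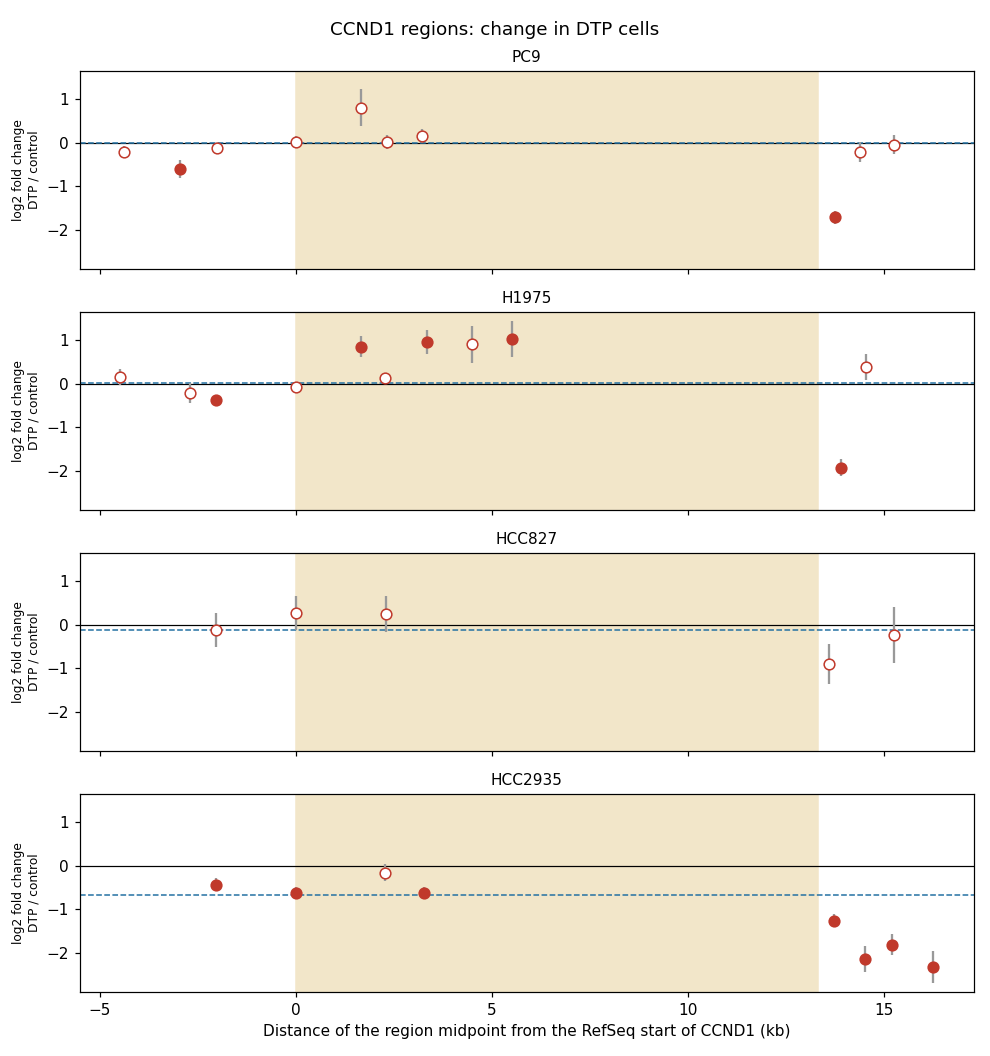
Log2 fold change of DTP against control cells, with SE bars, for CCND1 regions by distance of the region midpoint from the RefSeq start in kb, 1 panel a line, with filled points where the adjusted p was under 0.05, a band for the gene and a dashed line for the median of the 10 Mb bin, leaving out regions far upstream. The first region past the 3′ end of the gene is at -1.72 in PC9 and -1.93 in H1975, with -0.90 in HCC827 and -1.26 in HCC2935, and the start at 0.02, -0.07, 0.26 and -0.62.

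Other CCND1 regions were called in fewer lines. The matched region 2005 bases before the start in PC9 fell in H1975 (-0.38) and in HCC2935 (-0.44), where the median of the 10 Mb bin was -0.68. It was at -0.12 in PC9 and in HCC827, neither called. Beyond the 3′ region, 3 more HCC2935 regions fell. The first of them went from 9.81, 6.49 and 7.63 CPM to 1.42, 2.07 and 1.94 CPM (-2.14 ± 0.29, edgeR adjusted p = 7.6e-08), and the others changed by -1.81 and -2.32. All 3 were also called with the bin medians removed (-1.54, -1.21 and -1.72). In PC9 a region 53285 bases before the start rose from 1.02, 1.01 and 1.59 CPM to 2.73, 5.38 and 4.82 CPM (1.79 ± 0.35, edgeR adjusted p = 6.7e-06). In H1975 a region 52593 bases before the start, not matched to it, fell from 7.19, 5.05 and 3.98 CPM to 2.52, 2.74 and 2.9 CPM (-0.96 ± 0.21, edgeR adjusted p = 2.8e-05). Inside the gene, weak H1975 regions rose, such as the one 3332 bases after the start, from 1.24, 1.8 and 1.69 CPM to 4.23, 2.64 and 2.6 CPM (0.96 ± 0.27, edgeR adjusted p = 0.00139). The matched HCC2935 region changed by -0.63 and was at -0.03 with the bin medians removed.

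**Figure D4:**
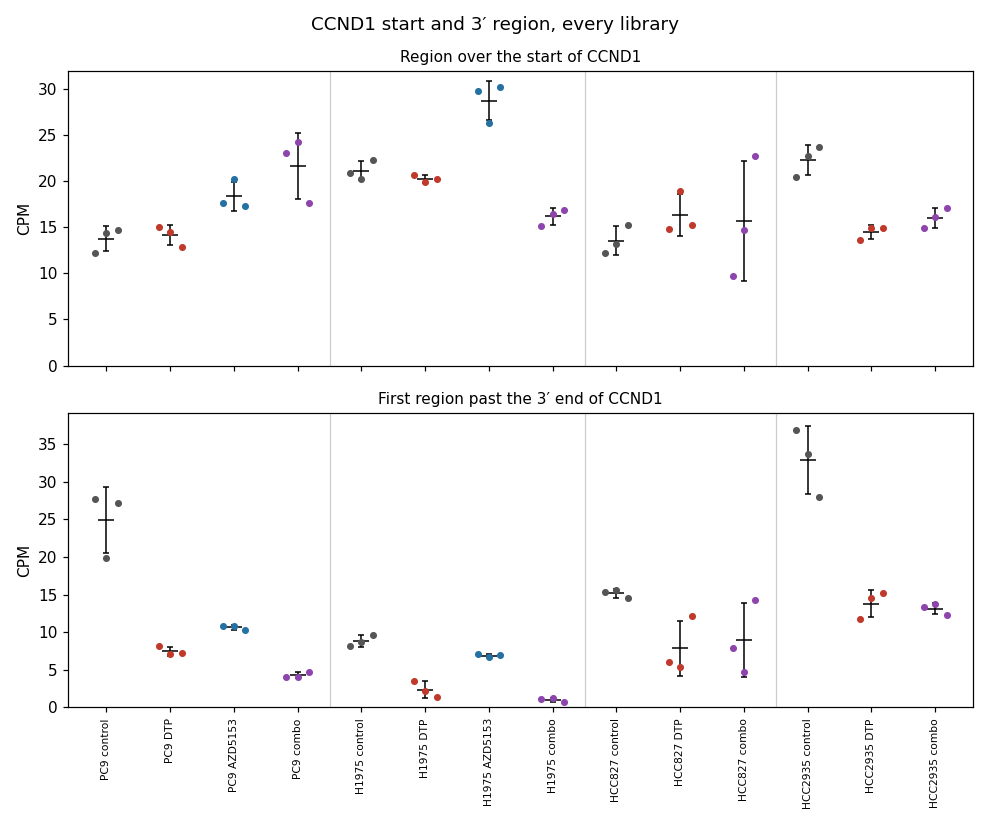
CPM in every library by group for the CCND1 start region and the first region past its 3′ end, with points for libraries and bars for the mean and SD of 3. In PC9 the 3′ region goes from 24.9 CPM in control to 7.48 CPM in DTP and 4.29 CPM in combo cells, and the start region from 13.8 to 14.1 and 21.7 CPM.

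CCND3, the cyclin D3 gene, was not called at its lead promoter in the main fit. The changes were -0.05 ± 0.11 in PC9 and 0.12 ± 0.10 in H1975, with 0.46 ± 0.38 in HCC827 and -0.02 ± 0.12 in HCC2935. The H1975 lead promoter was called by library size only (0.29, edgeR adjusted p = 0.0105) and with the bin medians removed (0.27, edgeR adjusted p = 0.0272). In H1975 an intron region (chr6:41976725-41977226) fell from 10.5, 10.2 and 11.3 CPM to 1.37, 1.52 and 1.7 CPM (-2.79 ± 0.20, edgeR adjusted p = 6.2e-32), 6.9-fold lower, and was called in the summed fit (edgeR adjusted p = 1.5e-15). The matched PC9 region went from 2.06 to 1.47 CPM on average (-0.50, not called). Another H1975 intron region (chr6:42028464-42028965) fell from 7.33, 8.05 and 6.87 CPM to 2.63, 3.65 and 2.4 CPM (-1.35 ± 0.18, edgeR adjusted p = 4.1e-11). A further intron region rose in HCC2935 from 2.04, 2.25 and 1.58 CPM to 4.74, 5.25 and 4.69 CPM (1.31 ± 0.31, edgeR adjusted p = 0.00069). It fell in H1975 (-0.69 ± 0.24, edgeR adjusted p = 0.0101, and 0.109 in the summed fit) and was at 0.12 in PC9, not called. CCND2, the cyclin D2 gene, had 1.53, 1.62 and 2.18 CPM in PC9 control and 2.14, 3.31 and 3.21 CPM in DTP libraries (0.67 ± 0.36, not called).

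Beside the members, 32 other G1/S genes were listed, among them those of the kinases, RB1 and the E2F factors, and 30 had a promoter region in PC9, H1975 and HCC2935 and 25 in HCC827. In DTP cells 5 of these promoters rose and 1 fell in PC9, against 15.5% and 16.3% of all regions. In H1975 3 rose and 14 fell, against 24.8% and 27.0%, and in HCC2935 3 rose and 2 fell, against 18.4% and 19.0%. In HCC827 0 were called, against 0.0207% and 0.00607%. Against those shares, 1 of 9 member lead promoters fell in PC9 and 1 of 6 in HCC2935. In H1975 1 of 8 rose, and in HCC827 0 of 8 were called.

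The comparison of combo with DTP cells asked what differed in persisters after 3 days of AZD5153. As it is not stated if osimertinib stayed on, AZD5153 and any end of osimertinib cannot be told apart here. In PC9, 9 of 42 regions rose and 4 fell, against 10.7% and 11.6% of all. In H1975, 4 of 40 rose and 6 fell, against 11.5% and 9.50% of all. All 10 falls in these lines were at CCND1. Either scaling H1975 by library size only or removing its bin medians gave 2 member rises and 6 falls. Of all 191202 H1975 regions, 16087 rose and 22741 fell by library size only. With the bin medians removed these were 21075 and 17712. In HCC2935 edgeR called 0 of 23 (4 at an unadjusted p under 0.05), against 2.37% and 6.03% of all. In HCC827 edgeR called 0 of 16 (0 at an unadjusted p under 0.05), against 0% and 0% of all, and 0 with the block, against 0% and 0.0158%. In the summed fit 4 PC9 regions were called, against 5.63% of all, and 0 H1975 regions, against 2.47%, where 15 had an unadjusted p under 0.05 by edgeR's quasi-likelihood test.

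The CCND1 3′ region was lower again in combo cells of PC9, at 4.11, 4.05 and 4.72 CPM (-0.80 ± 0.22, edgeR adjusted p = 0.0033), and of H1975, at 1.06, 1.23 and 0.702 CPM (-1.22 ± 0.31, edgeR adjusted p = 0.00172). The H1975 call was lost without DTP replicate 1 (-0.83, edgeR adjusted p = 0.106), and neither was kept in the summed fit (edgeR adjusted p = 0.0894 and 0.0766). The change was 0.19 in HCC827 and -0.07 in HCC2935, neither called. The next region downstream fell as well, in PC9 (-1.07 ± 0.29, edgeR adjusted p = 0.00267) and in H1975 (-1.31 ± 0.34, edgeR adjusted p = 0.00183), and neither fall was called in the summed fit (0.0804 and 0.0879). This H1975 fall was also lost without DTP replicate 1 (-0.97, edgeR adjusted p = 0.0685).

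Inside CCND1 the PC9 regions went both ways. The region 3207 bases after the start fell from 15.4, 13.7 and 13.7 CPM to 5.29, 6.18 and 3.43 CPM (-1.51 ± 0.18, edgeR adjusted p = 1.9e-13, and 1.5e-05 in the summed fit). The start region rose from 15, 14.5 and 12.9 CPM to 23.1, 24.3 and 17.6 CPM (0.62 ± 0.13, edgeR adjusted p = 3.5e-05, and 0.0653 in the summed fit). The region 1649 bases after the start rose from 1.75, 2.07 and 2.61 CPM to 5.29, 4.26 and 5.57 CPM (1.23 ± 0.29, edgeR adjusted p = 0.00046). In H1975 the CCND1 start fell instead, from 20.7, 19.9 and 20.2 CPM to 15.2, 16.5 and 16.9 CPM (-0.32 ± 0.10, edgeR adjusted p = 0.00851, and 0.471 in the summed fit). That call was also lost without combo replicate 1 (-0.26, edgeR adjusted p = 0.0998) and with DESeq2 (adjusted p = 0.0563). The difference between the lines was not tested.

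At CCND3, a PC9 intron region (chr6:41967575-41968076) rose from 5.06, 4.35 and 4.42 CPM to 11.4, 10 and 11.1 CPM (1.23 ± 0.20, edgeR adjusted p = 8e-08, and 0.00408 in the summed fit). The PC9 CCND2 region rose from 2.14, 3.31 and 3.21 CPM to 4.11, 5.11 and 5.36 CPM (0.75 ± 0.28, edgeR adjusted p = 0.0355), a call lost without DTP replicate 1, combo replicate 2 or combo replicate 3 (edgeR adjusted p = 0.191, 0.0937 and 0.111). The CDKN2D lead promoter rose in PC9 from 43.6, 36 and 37.3 CPM to 50.1, 52 and 49.1 CPM (0.37 ± 0.08, edgeR adjusted p = 0.00011) and in H1975 from 32.7, 37.9 and 36.8 CPM to 44.7, 42.8 and 40.2 CPM (0.24 ± 0.07, edgeR adjusted p = 0.00681). Neither CDKN2D rise was called in the summed fit (0.22 and 0.536), and the H1975 rise was lost without DTP replicate 1 or combo replicate 1 (edgeR adjusted p = 0.0864 and 0.0588). The lead promoters of CDKN1A, CDKN1B, CDKN2A, CDKN2B and CDKN2C were not called in any line that held them. Of the 30 other G1/S promoters 7 rose and 1 fell in PC9, against 10.7% and 11.6% of all regions. In H1975 11 of 30 rose and 0 fell, against 11.5% and 9.50%. In HCC2935 1 of 30 rose and 0 fell, against 2.37% and 6.03%, and in HCC827 0 of 25 were called, against 0%.

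The comparison of AZD5153 with control cells gave the same drug without osimertinib. In PC9, 10 of 42 regions rose and 4 fell, against 11.3% and 14.5% of all, and 3 were called in the summed fit, against 11.5%. Those 3 were all at CCND1. Its 3′ region fell from 27.7, 19.9 and 27.2 CPM to 10.8, 10.8 and 10.3 CPM (-1.22 ± 0.13, edgeR adjusted p = 1.5e-17), its region 53285 bases before the start rose to 5.96, 7.8 and 6.02 CPM (2.41 ± 0.31, edgeR adjusted p = 2.6e-12), and its region 1649 bases after the start rose to 3.65, 3.53 and 3.57 CPM (1.53 ± 0.36, edgeR adjusted p = 0.0003). The CDKN1B lead promoter fell from 30, 28 and 35.7 CPM to 22.9, 20.8 and 22 CPM (-0.52 ± 0.10, edgeR adjusted p = 9.3e-06, and 0.0513 in the summed fit). At CDKN1A 3 weaker regions rose, by 0.66, 0.61 and 0.98, while its lead promoter was at -0.19, not called. The CCND3 intron region that rose in combo against DTP cells fell here from 6.87, 5.07 and 5.16 CPM to 4.61, 2.41 and 2.63 CPM (-0.80 ± 0.25, edgeR adjusted p = 0.00961). This call was lost in the summed fit (edgeR adjusted p = 0.114) and with DESeq2 (adjusted p = 0.0545). It was also lost without control replicate 1, AZD5153 replicate 2 or AZD5153 replicate 3 (edgeR adjusted p = 0.0825, 0.0993 and 0.0749). Of the 30 other G1/S promoters 1 rose and 3 fell, against 11.3% and 14.5% of all regions.

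**Figure D5:**
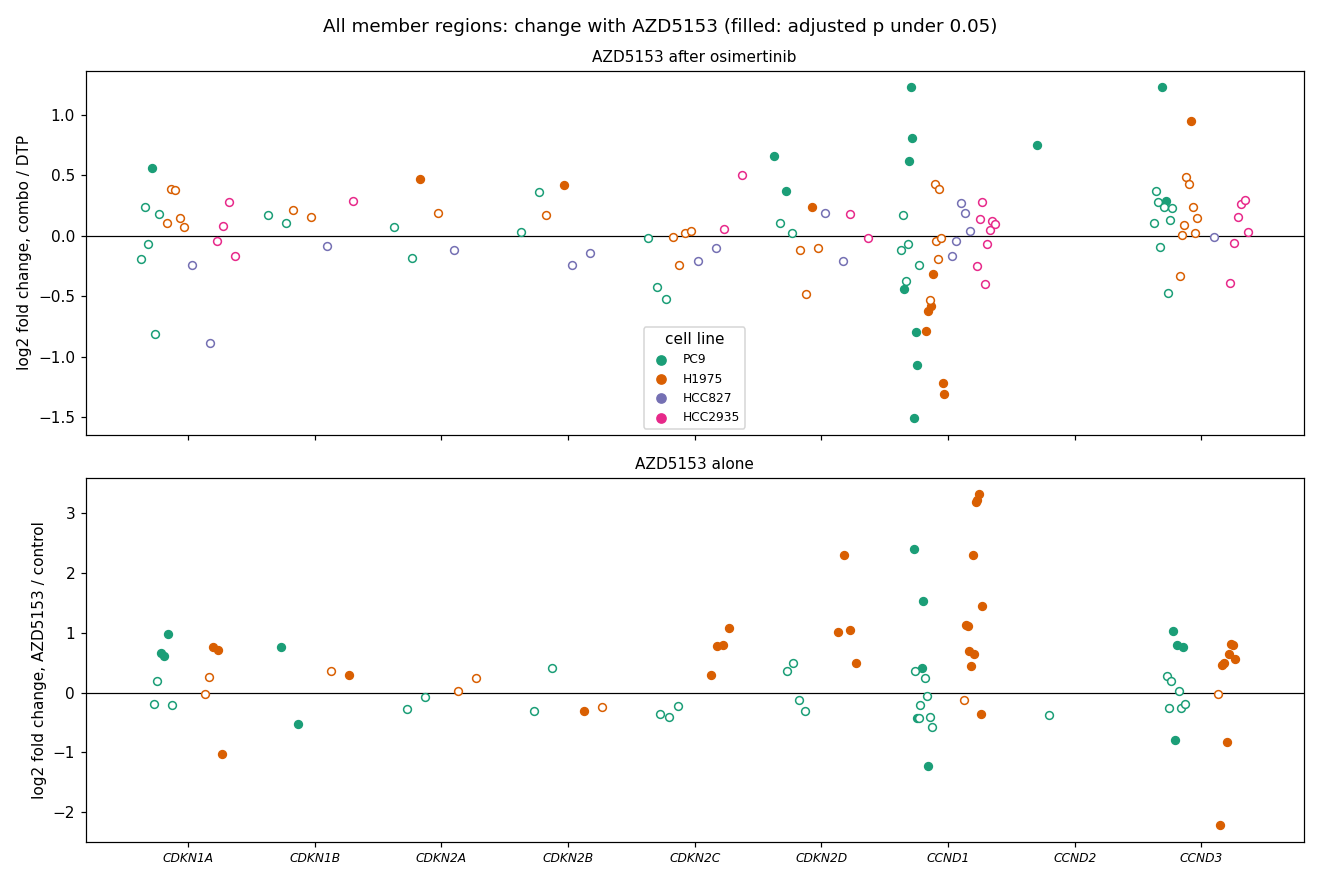
Log2 fold change of every region of each gene for AZD5153 after osimertinib (combo against DTP) and for AZD5153 alone (against control), coloured by line, with filled points where the adjusted p was under 0.05. CCND1 regions of PC9 lie on both sides of 0, from -1.51 to 1.23 in combo against DTP cells, and H1975 CCND1 regions reach 3.32 with AZD5153 alone.

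In H1975, 27 of 40 regions rose and 5 fell in the libraries labelled AZD5153, against 26.7% and 31.4% of all. In the summed fit 21 were called, against 41.7%. With the bin medians removed 24 rose and 8 fell, against 46992 and 55238 of all 191202. Whole chromosome stretches differed in these libraries. The bin medians were 0.83 around CCND1, 1.10 around CDKN2D, -1.16 around CDKN2A and CDKN2B, 0.39 around CDKN1A and 0.12 around CCND3. The CDKN2D lead promoter rose from 36.9, 35.3 and 34.2 CPM to 76.1, 75.9 and 68.7 CPM (1.05 ± 0.07, edgeR adjusted p = 1.6e-35) and was at 0.06 with the bin medians removed (edgeR adjusted p = 0.568). The CDKN2B lead promoter fell (-0.30 ± 0.11, edgeR adjusted p = 0.0165) but was higher with the bin medians removed (0.70, edgeR adjusted p = 1.1e-07). The CCND1 start rose (0.45 ± 0.09, edgeR adjusted p = 3e-06) but was lower with them removed (-0.27, edgeR adjusted p = 0.0116).

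Regions inside CCND1 and at CCND3 moved by more than their bins. The CCND1 region 5502 bases after the start rose from 0.553, 0.601 and 0.723 CPM to 6.81, 6.22 and 6.22 CPM (3.32 ± 0.29, edgeR adjusted p = 6.5e-23, and 2.60 with the bin medians removed). A CCND3 region (chr6:42045527-42046028) fell from 9.4, 9.74 and 8.07 CPM to 2.08, 1.56 and 2.04 CPM (-2.22 ± 0.20, edgeR adjusted p = 1.9e-21, and -2.35 with the bin medians removed). The inner CDKN1A region fell from 18, 17.5 and 14.9 CPM to 7.61, 6.69 and 9.79 CPM (-1.03 ± 0.13, edgeR adjusted p = 1.4e-13, and -1.40 with the bin medians removed). Of the 30 other G1/S promoters 8 rose and 8 fell, against 26.7% and 31.4% of all regions. The sum of the endothelial marker promoters was 3.77 CPM in these libraries, against 23.4 CPM in H1975 control. The low levels at the epithelial and endothelial marker promoters moved with all of these values, and their part in them was not tested.

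The AZD5153 change in DTP cells was then set against that in untreated cells by an interaction term. Any end of osimertinib in combo cells cannot be told apart from AZD5153 in this term either. In PC9, 4 of 42 regions had a higher and 3 a lower change in DTP cells, against 7.32% and 6.46% of all, and 3 were called in the summed fit, against 3.52%. The CCND3 intron region that rose in combo against DTP cells had a difference of 2.03 ± 0.32, edgeR adjusted p = 7.1e-08 (0.00134 in the summed fit). Its fall in untreated cells alone was not called in every fit. The CCND1 region 53285 bases before the start, which rose in untreated cells and was at -0.12 in persisters, had a difference of -2.53 ± 0.42, edgeR adjusted p = 2.9e-07. The CCND1 region 3207 bases after the start, which fell in persisters and was at -0.06 in untreated cells, had a difference of -1.46 ± 0.24, edgeR adjusted p = 1.8e-07. The CDKN1B lead promoter differed by 0.63 ± 0.14, edgeR adjusted p = 0.0003, and that of CDKN2D by 0.50 ± 0.12, edgeR adjusted p = 0.00067, neither called in the summed fit (0.206 and 0.33). For the CCND1 3′ region the difference was 0.42 ± 0.27, not called. In H1975, 5 of 40 regions had a higher and 21 a lower change in DTP cells, against 24.4% and 18.2% of all. In the summed fit 15 were called, against 24.5%. With the bin medians removed 5 were higher and 18 lower, against 41659 and 30404 of all 191202. The H1975 values share the libraries labelled AZD5153 and their regional shifts. Against the same shares of all, 7 of the 30 other G1/S promoters were higher and 0 lower in PC9. In H1975, 8 of 30 were higher and 4 lower.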

How the data were processed

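Open chromatin of the 4 cell lines was read from tables of raw counts per region that the authors deposited, 1 table a line, with an annotated subset that names a gene for each region. The submitters' processing notes name BWA 0.7.17, SAMtools 1.9, deepTools 3.4, MACS2 2.2.6, featureCounts 2.0.0, ChIPseeker 1.29.1 and the build hg38, without their roles. The deposited peak files, 1 a library, give each peak's fold enrichment and the −log10 of its q-value. The extraction text of the labels describes a ChIP of H3K27ac, while titles and design give ATAC-seq, and the values were read as ATAC-seq.

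Counts were tested in R 4.3.3 with edgeR 4.0.16 (filterByExpr, TMM, glmQLFit and glmQLFTest, Benjamini-Hochberg) over all regions of a line that passed the filter (126506 in PC9 and 191202 in H1975, with 82309 in HCC827 and 154179 in HCC2935), and each line was fitted once over its groups. Alternatives were DESeq2 1.42.0, its size factors, library size only, no filter, annotated regions only, the replicate number as a block, summed libraries with the dispersion of HCC2935 (likelihood ratio test), medians of 10 Mb bins removed, and each library left out. Correlations of same-numbered libraries were 0.165 to 0.848 over 9 pairs in HCC827, which paired them there, -0.0346 to 0.0185 in PC9, -0.053 to 0.0297 in H1975 and -0.198 to 0.308 in HCC2935. The fit was tested on simulated data.

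Regions named were each gene's lead promoter, its strongest region that was not a promoter, and, for each comparison and line, the 2 strongest called rises and falls without overlap of libraries. For the interaction the overlap criterion was not applied. The CCND1 start where it was not the lead, matched regions and others named were chosen after their values were seen. Members and lists were chosen with earlier results of these data known. Promoter sequences came from RefSeq (GRCh38.p14), which matched 7 of the 10 genes.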

Additional observations from a re-analysis of the deposited data

Results flagged for a closer look

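The AZD5153 change in DTP cells differed from that in untreated cells, by the interaction term, at 7 of 42 PC9 regions, with the same limit on osimertinib in combo cells. The log2 differences were 2.03 at the CCND3 intron region, -2.53 at the CCND1 region 53285 bases before the start, -1.46 at the CCND1 region 3207 bases after it, -1.79 at the CDKN1A region 5949 bases after the start, 0.63 at the CDKN1B lead promoter, 0.63 at the CCND3 region 4335 bases after the start and 0.50 at the CDKN2D lead promoter. Distances in CDKN1A and CCND3 are from the RefSeq gene start, which lies upstream of the start whose promoter is printed. The CCND3 region 4335 bases after the gene start (chr6:42045450-42045951) had an edgeR adjusted p of 0.0499. Its call was lost under each of the 8 other fits of all libraries (edgeR adjusted p = 0.444 in the summed fit) and without each of 8 libraries in turn. The calls at the CDKN1A region and at the CDKN1B and CDKN2D lead promoters were also lost in the summed fit (edgeR adjusted p = 0.0939, 0.206 and 0.33). In H1975, where the libraries labelled AZD5153 stood apart, 26 of 40 regions differed, 5 higher and 21 lower. Among them were 3 CCND1 regions (-0.77 at the start, -3.39 and -3.34 inside the gene), the CDKN2D lead promoter (-0.81), 3 CCND3 regions (-0.58 at the lead promoter, 1.26 and 2.24 elsewhere) and the CDKN2B lead promoter (0.47).

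Libraries of DTP and control cells did not overlap, but moved in opposite directions in the lines named, at 4 matched sets, and the difference between lines was not tested. The inner CDKN1A region was at -0.38 in PC9, 0.39 in H1975 and 0.45 in HCC2935. The CDKN2A p16 start was at -0.67 in PC9 and 0.74 in H1975. A CCND3 intron region was at -0.69 in H1975 and 1.31 in HCC2935. A region inside CCND1 was at 0.96 in H1975 and -0.63 in HCC2935, where the median of the 10 Mb bin was -0.68.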

How the results depend on the processing

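Under other settings 171 counts stayed within 1.5 times the reported count and 17 did not. DESeq2 called 3 PC9 regions in DTP against control cells, 8 in combo against DTP and 7 in AZD5153 against control, and 5 H1975 regions in combo against DTP. Of all regions it called 25161, 12501 and 18774 of 126506 in PC9, and 17073 of 191202 in H1975. The summed fit called 2, 4, 3 and 3 PC9 regions and 7, 0, 21 and 15 H1975 regions (DTP, combo, AZD5153 and interaction), and 1 HCC827 region in each comparison. Of all 82309 HCC827 regions the summed fit called 9562 (DTP) and 2435 (combo). With annotated regions only, 1 HCC2935 region was called in combo against DTP, against 10686 of all 65263. Leaving out 1 library gave 4 to 5, 10 to 12, 11 to 14 and 6 to 8 calls in PC9, 15 to 18, 5 to 9, 26 to 31 and 23 to 27 in H1975, and 8 to 11 (DTP) and 0 to 0 (combo) in HCC2935. The lowest H1975 combo counts came from leaving out DTP replicate 1 (5) and combo replicate 1 (6). With the medians of 10 Mb bins removed, 5 H1975 values changed sign, which were the CCND1 start (-0.27 for AZD5153 and 0.01 for the interaction), the CDKN2B lead promoter (0.70 and -0.67) and the interaction at the CDKN2D lead promoter (0.26). With the replicate block, 6 PC9 regions were called for the interaction and no other member count changed. Of 72 called values of named regions, 22 were lost without 1 library. Scaling by library size only moved the median log2 change of all H1975 regions from -0.04 to 0.12 for AZD5153 and to -0.23 for the interaction. Beyond those given, the cause of these changes was not tested. HCC827, with the shallowest libraries and the widest replicate spread, had 5693 of all its regions at an unadjusted p under 0.05 in DTP against control cells, and its lack of member calls does not show that these regions were stable.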

Other observations

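CDKN1C, the p57 gene, had no assigned region, but the full count tables held 2 regions within 5 kb of it in PC9, H1975 and HCC827 and 1 in HCC2935. Around CCND2 the full tables held 36 regions within 5 kb in PC9, 15 each in H1975 and HCC827, and 13 in HCC2935, of which 1 in PC9 carried its symbol.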
